A study of Rattus with 12 samples.

Results

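The genes described are 7 subunits of the GABA-A receptor, chosen by name: the α subunits Gabra2, Gabra3, Gabra4 and Gabra5, the β subunits Gabrb1 and Gabrb2, and the δ subunit Gabrd. They are 7 of 17337 genes in a table of read counts, and all 7 were among the 12271 genes with enough counts to be tested. The counts come from poly(A) RNA of 12 complex cultures of Sprague Dawley rat cells, in which purchased cortical neurons, astrocytes and oligodendrocyte precursor cells (OPCs) were grown together. Fentanyl, a synthetic agonist of the μ-opioid receptor, was present for 4 days at 0.01 μM in 4 cultures (low dose; letters B, H, N and Q) and at 10 μM in 4 cultures (high dose; C, I, O and R), and 4 cultures received none (untreated; A, G, M and P). The comparison asks how the RNA of each subunit differed between the doses. The study speaks of biological replicates, but neither the labels nor the methods say whether the cultures of a condition came from separate preparations of cells, so the p-values measure only the spread between these cultures.

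GABA-A receptors are chloride channels that open when the transmitter GABA binds, and each channel is assembled from several subunits around a pore. The α and β subunits together form the binding site for GABA. The remaining position is usually taken by a γ subunit in receptors at the synapse, or by δ in receptors outside it that carry tonic inhibition. The choice of α subunit sets where the receptor sits and how strongly it responds: α2 and α3 are found largely at synapses, whereas α4, which often pairs with δ, and α5 are found largely outside them. In the cortex α2, α3 and α5 are typical of immature neurons.

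No dose difference of any of the 7 subunits passed the test. In the model of all cultures, none of the 12271 genes tested passed in any comparison, so this result does not set the subunits apart. The study itself reported genes past the same limits of fold change and adjusted p in every comparison. Among the untreated cultures, 1, G, held far less RNA of most of the subunits than any other culture. When the 2 doses were compared, high dose cultures held more Gabra4 and less Gabra5 in all 4 sets of consecutive culture letters, but neither difference passed the test, and 22.8% of all tested genes had a single direction in the 4 sets. Most of the remaining spread followed those letter sets, and it differed from subunit to subunit. Values per culture are given as CPM, which are counts divided by the size of the library, with library sizes corrected by the TMM method. They are comparable between cultures for 1 gene but not between genes, since they are not divided by transcript length.

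The total count per culture lay between 12059872 and 17023909 in the untreated, between 12907388 and 16512387 in the low dose and between 15102785 and 24813893 in the high dose condition. Culture G stood apart in its markers. Its neuron score, the mean log2(CPM + 1) of 14 neuron markers, was 4.20, against 7.42 to 7.81 in the other untreated, 7.39 to 7.76 in the low dose and 7.60 to 7.82 in the high dose cultures. Rbfox3, the NeuN antigen of mature neurons, was at 1.30 CPM in G and between 58.6 and 93.5 CPM in the others. The score of fibroblast markers was 7.81 in G and between 3.66 and 6.86 in the others, whereas the astrocyte score of G, 8.07, lay within the range of the others, 6.79 to 8.45. In RNA of whole cultures, fewer cells of a type and less RNA per cell cannot be told apart. Results that rest on G are therefore given with and without it.

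Among the α subunits found largely at synapses, Gabra2 was the steadiest. Its RNA was at 37.6, 22.6, 37.9 and 52.3 CPM in untreated cultures A, G, M and P, at 41.1, 30.4, 34.1 and 47.9 CPM in low dose cultures B, H, N and Q, and at 38.6, 45.5, 40.7 and 46.4 CPM in high dose cultures C, I, O and R. The untreated range enclosed all cultures of both doses. The means were 37.6 ± 12.1 CPM untreated, 38.4 ± 7.76 CPM at the low dose and 42.8 ± 3.78 CPM at the high dose (SD, n = 4 each).

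Gabra3 was at 9.86, 1.23, 9.46 and 18.5 CPM in A, G, M and P, at 10.7, 9.27, 10.2 and 19.9 CPM in B, H, N and Q, and at 8.06, 10.5, 9.35 and 19.0 CPM in C, I, O and R. In every condition 1 culture, P, Q or R, lay far above the rest, and the other cultures except G lay close together at all doses. The means were 9.77 ± 7.07, 12.5 ± 4.95 and 11.7 ± 4.96 CPM at untreated, low dose and high dose (SD, n = 4 each).

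Gabra4, the α partner of δ in the forebrain, was at 16.2, 2.01, 45.3 and 23.3 CPM in A, G, M and P, at 15.6, 27.1, 26.7 and 21.1 CPM in B, H, N and Q, and at 21.5, 41.6, 43.8 and 27.2 CPM in C, I, O and R. Cultures I and O, both at the high dose, and untreated M were the highest, and each high dose culture was above the low dose culture of its own letter set. The groups overlapped nevertheless, with means of 21.7 ± 18.0, 22.6 ± 5.42 and 33.5 ± 10.9 CPM at untreated, low dose and high dose (SD, n = 4 each).

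Gabra5 was at 11.6, 1.49, 22.1 and 39.8 CPM in A, G, M and P, at 17.3, 32.2, 27.0 and 36.7 CPM in B, H, N and Q, and at 11.1, 23.3, 23.9 and 30.9 CPM in C, I, O and R. Each high dose culture was below the low dose culture of its set, the opposite order to Gabra4. The means were 18.7 ± 16.4, 28.3 ± 8.34 and 22.3 ± 8.25 CPM at untreated, low dose and high dose (SD, n = 4 each), and the groups overlapped.

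Of the β subunits, Gabrb1 was at 5.61, 3.31, 10.3 and 11.6 CPM in A, G, M and P, at 7.003, 4.39, 6.72 and 11.9 CPM in B, H, N and Q, and at 6.75, 8.32, 5.42 and 11.4 CPM in C, I, O and R. Its means of 7.69 ± 3.88, 7.50 ± 3.16 and 7.97 ± 2.56 CPM at untreated, low dose and high dose (SD, n = 4 each) were close to each other for the spread within a condition. Gabrb2, a β subunit widely made in the adult brain, was at 20.01, 0.454, 44.3 and 36.1 CPM in A, G, M and P, at 20.3, 23.1, 34.3 and 26.7 CPM in B, H, N and Q, and at 19.8, 38.6, 40.0 and 35.2 CPM in C, I, O and R. Cultures A, B and C were alike and low, and among the others the low dose cultures lay below the untreated and high dose cultures of the same set, G left aside. The means of Gabrb2 were 25.2 ± 19.3, 26.1 ± 6.07 and 33.4 ± 9.30 CPM at untreated, low dose and high dose (SD, n = 4 each).

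Gabrd was at 23.8, 0.0649, 19.2 and 13.4 CPM in A, G, M and P, at 18.8, 22.8, 18.5 and 12.7 CPM in B, H, N and Q, and at 16.5, 18.5, 14.96 and 13.3 CPM in C, I, O and R. The high dose cultures spanned the narrowest range, and untreated A and low dose H were the highest. The means were 14.1 ± 10.3, 18.2 ± 4.14 and 15.8 ± 2.22 CPM at untreated, low dose and high dose (SD, n = 4 each).

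**Figure D1:**
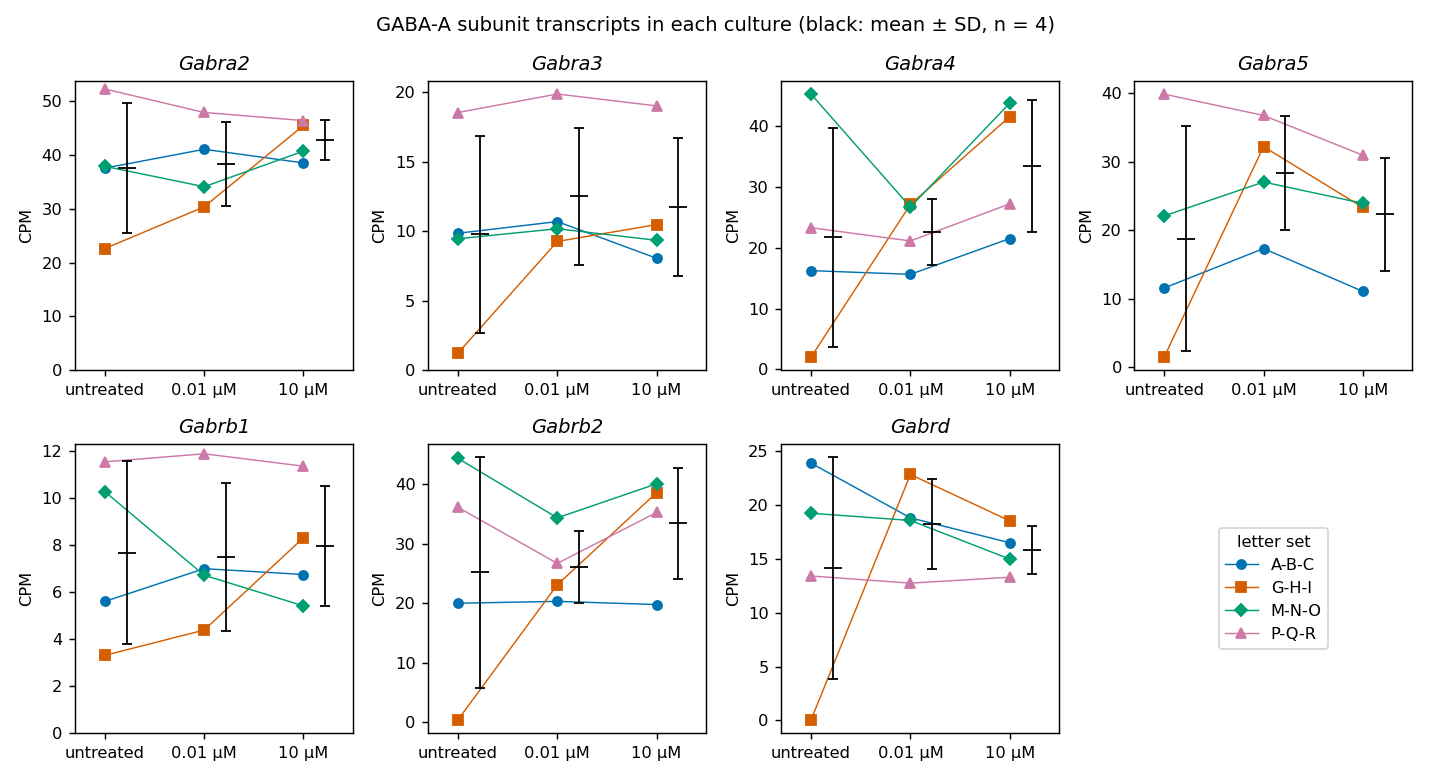
Level of each of the 7 subunits in the 12 cultures, in CPM, by condition, with 1 panel per subunit; coloured points are cultures, lines join the cultures of 1 letter set, and black marks are the mean ± SD of 4 cultures. The untreated culture G lies at the bottom of every panel, and the 3 conditions overlap in all 7.

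Culture G was the lowest of the 12 cultures for each of the 7 subunits, by very different amounts. It held 349 counts of Gabra2 and 51 of Gabrb1, and the mean of the other 3 untreated cultures was 1.88-fold and 2.77-fold that of G. Gabra3, Gabra4 and Gabra5 had 19, 31 and 23 counts in G, with the mean of the other 3 higher by 10.2-fold, 14.1-fold and 16.4-fold. Gabrb2 had 7 counts, for a ratio of 73.7, and Gabrd had 1 count, for a ratio of 290.0 with an exact 95% interval of 52.0 to 11454 from the Poisson error of the count in G alone. The order thus ran from Gabra2 and Gabrb1, which G kept in good part, to Gabrd, which was near the limit of detection there. In the other 11 cultures the lowest count of Gabrb2 was 264 and that of Gabrd 161.

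Of the γ subunits, Gabrg3 had 11 counts in G, and the mean of the other 3 untreated cultures was 6.67-fold that of G. Gabrg1, a γ subunit also known from glia, had 293 counts in G and a ratio of 1.19. The markers of glutamatergic neurons scored 1.85 in G against 5.57 to 6.01 in the other 11 cultures, and those of GABAergic neurons 1.09 against 2.43 to 3.12. The part of cell make-up in the low subunit levels of G was not tested.

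**Figure D2:**
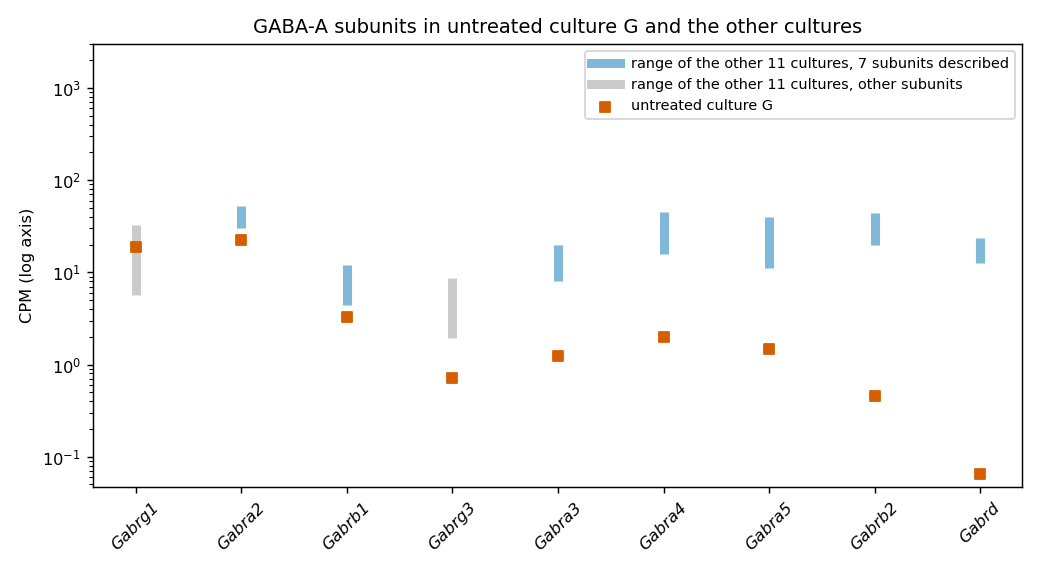
Level of the 7 subunits and of Gabrg1 and Gabrg3 in culture G (squares) and the range of the other 11 cultures (thick bars), in CPM on a log axis. G lies below the bar for each of the 7 subunits, slightly for Gabra2 and Gabrb1 and most for Gabrd, which had 1 count in G.

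With G left out, the untreated means of the n = 3 cultures A, M and P moved to 42.6 ± 8.40 CPM for Gabra2, 12.6 ± 5.13 CPM for Gabra3, 28.3 ± 15.1 CPM for Gabra4 and 24.5 ± 14.3 CPM for Gabra5 (SD). The β subunits moved to 9.15 ± 3.13 CPM for Gabrb1 and 33.5 ± 12.4 CPM for Gabrb2, and Gabrd to 18.8 ± 5.24 CPM.

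For the low dose against untreated, edgeR was fitted to all tested genes with the 3 conditions and 1 factor of unwanted variation. The factor was 2.96 in G and between -0.70 and 0.49 in the other 11 cultures, so it mainly set G apart. The letter sets were not a term of this model. A call needed a log2 fold change beyond 0.5, up or down, with an adjusted p under 0.05. None of the 7 subunits was called, beside 0% of all genes tested, and none had an unadjusted p under 0.05, beside 0.742% of all genes. The log2 fold changes were -0.08 ± 0.15 for Gabra2, 0.28 ± 0.32 for Gabra3, 0.07 ± 0.55 for Gabra4, 0.64 ± 0.48 for Gabra5, -0.19 ± 0.35 for Gabrb1, 0.26 ± 0.62 for Gabrb2 and 0.63 ± 0.56 for Gabrd (SE), with an adjusted p of 1.0 for each. No subunit was without overlap between the conditions, beside 0.407% of all genes. The median log2 fold change of the 7 subunits was 0.26 and that of all genes 0.013, but it was -0.12 for the subunits when G was left out of the same model.

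For the high dose against untreated, which shares its untreated cultures with the previous comparison, again none was called by edgeR, beside 0% of all genes, and none had an unadjusted p under 0.05, beside 1.19% of all genes. The log2 fold changes were 0.09 ± 0.15 for Gabra2, 0.21 ± 0.31 for Gabra3, 0.65 ± 0.55 for Gabra4, 0.31 ± 0.48 for Gabra5, -0.10 ± 0.34 for Gabrb1, 0.57 ± 0.62 for Gabrb2 and 0.39 ± 0.56 for Gabrd (SE), with an adjusted p of 1.0 for each. All 7 overlapped, beside 0.685% of all genes without overlap. The median of the subunits was 0.31 against 0.0031 for all genes, and it was 0.051 without G. The direction of several subunits turned with G: without it Gabra4, Gabrb2 and Gabrd had log2 fold changes of -0.30, -0.30 and -0.06 at the low dose, and Gabra3 and Gabrd of -0.03 and -0.27 at the high dose, against untreated.

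For the high dose against the low dose, in which G is on neither side but enters the shared estimate of the spread, none was called by edgeR, beside 0% of all genes, and none had an unadjusted p under 0.05, beside 1.17% of all genes. The log2 fold changes were 0.17 ± 0.15 for Gabra2, -0.08 ± 0.31 for Gabra3, 0.58 ± 0.54 for Gabra4, -0.33 ± 0.47 for Gabra5, 0.10 ± 0.33 for Gabrb1, 0.31 ± 0.62 for Gabrb2 and -0.24 ± 0.55 for Gabrd (SE), with an adjusted p of 1.0 for each. No subunit was without overlap, beside 1.19% of all genes. The median of the subunits was 0.095 against -0.0087 for all genes. DESeq2 with the same factor called none of the 7 in any of the 3 comparisons. With standard errors of this size, none but Gabra2 could be placed within a narrow band, and a difference that missed the threshold does not show that the levels were alike.

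The letters of the cultures run consecutively across the doses, so that the cultures fall into the sets A-B-C and G-H-I and the further sets M-N-O and P-Q-R, each with 1 culture per condition. The labels and the methods do not say what the letters stand for. The sets held most of the spread of the subunits over the 11 cultures other than G. The share of the variance of log2(CPM + 1) that lay between sets was 95.03% for Gabra3, 87.7% for Gabra5, 76.5% for Gabrb2, 73.7% for Gabra4, 71.3% for Gabrd, 63.2% for Gabrb1 and 56.4% for Gabra2, with a median of 75.3% over all genes tested. The share between doses ran from 1.32% for Gabra3 to 20.5% for Gabra4, with a median of 7.96% over all genes.

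The subunits differed in which set stood out. In P, Q and R, Gabra2 (46.4 to 52.3 CPM), Gabra3 (18.5 to 19.9 CPM) and Gabrb1 (11.4 to 11.9 CPM) lay above all other 8 cultures, which reached 45.5, 10.7 and 10.3 CPM. Gabrd lay below them there, at 12.7 to 13.4 CPM against 14.96 to 23.8 CPM. In A, B and C it was Gabra5, at 11.1 to 17.3 CPM against 22.1 to 39.8 CPM, and Gabrb2, at 19.8 to 20.3 CPM against 23.1 to 44.3 CPM, that lay below all other 8. The γ subunits Gabrg1 and Gabrg3 were also lowest of the 11 cultures in A, B and C, at 5.72 to 9.93 and 1.95 to 2.85 CPM. The microglia score was 1.81 to 2.02 in P, Q and R and 4.07 to 6.06 in all other cultures. Other scores set these cultures apart too. The OPC score was 7.16 to 7.22 in P, Q and R and 4.94 to 6.78 in all others. Their astrocyte score was 8.05 to 8.45, against 6.79 to 7.69 in the other 8 cultures without G. In A, B and C the OPC score was lowest, at 4.94 to 5.43. The oligodendrocyte score was lowest there as well, at 5.46 to 6.14 against 6.62 to 8.60. The part of cell make-up in the levels of these sets was not tested.

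Within the letter sets, the difference between the high and the low dose could be read without G. In log2(CPM + 1), Gabra4 was higher at the high dose by 0.44, 0.60, 0.69 and 0.35 in the 4 sets, taken in the order given above. Gabra5 was lower in all 4, with differences of -0.60, -0.45, -0.17 and -0.24. These 2 subunits were the only members with 1 direction in all 4 sets, beside 22.8% of all genes tested. Gabrb2 differed by -0.04, 0.71, 0.22 and 0.39, and Gabrd by -0.18, -0.29, -0.29 and 0.06, each with 1 set against the other 3. Gabra2 (-0.09, 0.57, 0.25 and -0.05), Gabra3 (-0.37, 0.16, -0.11 and -0.06) and Gabrb1 (-0.05, 0.79, -0.27 and -0.06) had no common direction, and in each of them the highest difference was that of H and I.

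**Figure D3:**
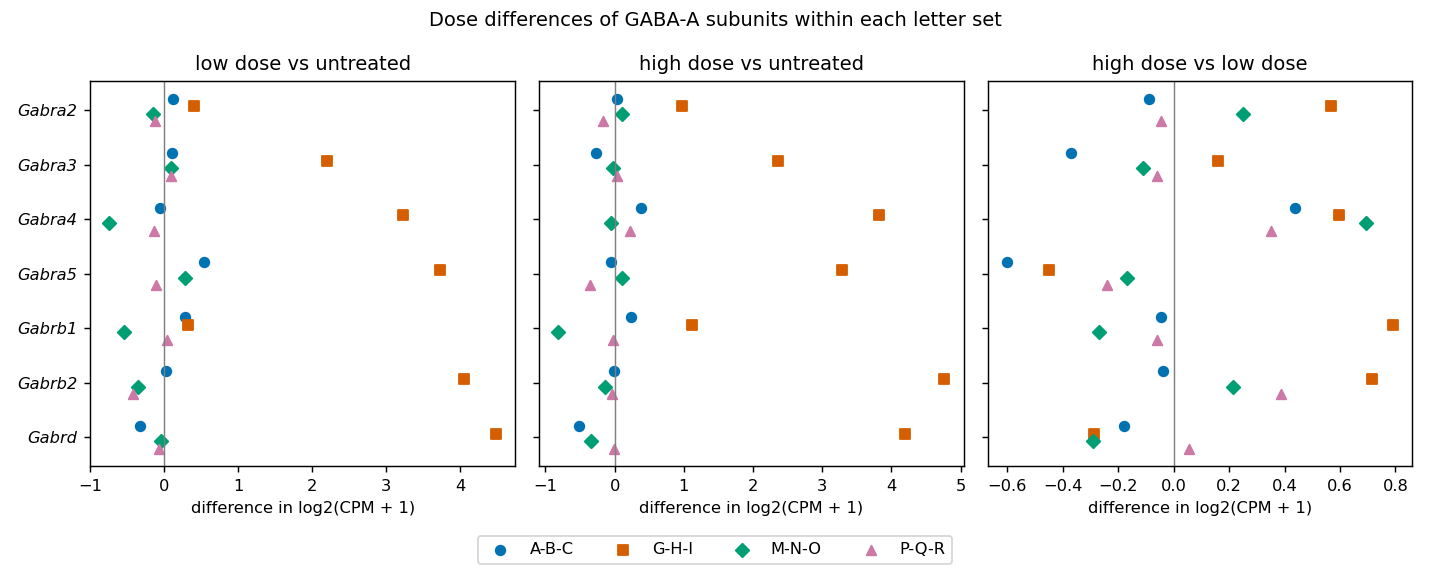
Difference between conditions in log2(CPM + 1) for each of the 7 subunits within each of the 4 letter sets, with 1 panel per comparison and a separate horizontal scale in each panel. The G-H-I differences against untreated lie far to the right for 5 of the 7 subunits, since G is their untreated culture, and in the panel of high against low dose all 4 points of Gabra4 lie right and all 4 of Gabra5 left of 0.

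Against untreated, the 3 sets other than G-H-I give differences that do not rest on G. At the low dose Gabra4 was lower in the 3 sets, with differences of -0.05, -0.74 and -0.13, as was Gabrd (-0.33, -0.05 and -0.07), and Gabra3 was higher by 0.11, 0.10 and 0.10. These are 3 of the 7 subunits with 1 direction in the 3 sets, beside 27.6% of all genes. At the high dose Gabrd was lower in the 3 sets, with differences of -0.51, -0.34 and -0.01, as was Gabrb2 (-0.02, -0.14 and -0.03), which makes 2 of the 7, beside 29.6% of all genes. Of these differences, that of Gabra4 in M-N-O was the largest. It was the difference of low dose culture N, at 26.7 CPM, from untreated M, at 45.3 CPM. The Gabra4 difference of 0.69 between the doses in that set also involves N, against high dose culture O at 43.8 CPM. N lay within the range of the other low dose cultures, 15.6 to 27.1 CPM, whereas M was the highest of all cultures. With each culture left out in turn, the Gabra4 estimate at the low dose against untreated was lowest without N and highest without M. The fibroblast score of N was 6.86, against 5.04 in M and 5.03 in O. Its score of oligodendrocyte markers was 7.04, against 8.31 in M and 7.77 in O. The part of these differences in make-up was not tested.

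A second edgeR model took the letter sets as a block in place of the factor and left out G, with 12337 genes tested. Its standard errors were smaller, by the least for Gabra2 (0.15 against 0.12 at the low dose against untreated) and Gabrb1 (0.35 against 0.26), and none of the 7 subunits was called in any comparison, beside 0% of all genes for the low dose against untreated, 0.122% for the high dose against untreated and 0.113% for the high against the low dose. For the high against the low dose, 3 of the 7 had an unadjusted p under 0.05, beside 13.6% of all genes. Gabra4 had a log2 fold change of 0.54 ± 0.11 (SE; edgeR adjusted p = 0.0971), Gabra5 of -0.38 ± 0.11 (edgeR adjusted p = 0.199) and Gabrb2 of 0.34 ± 0.11 (edgeR adjusted p = 0.257). The others were 0.17 ± 0.11 for Gabra2, -0.10 ± 0.11 for Gabra3, 0.13 ± 0.23 for Gabrb1 and -0.18 ± 0.10 for Gabrd. Gabra4 thus came nearest to the threshold of the 7, and Gabra5 had the opposite sign.

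In the same model the low dose against untreated had 2 subunits with an unadjusted p under 0.05, beside 7.54% of all genes. They were Gabra4, at -0.35 ± 0.12 (SE; edgeR adjusted p = 0.644), and Gabrb2, at -0.34 ± 0.13 (edgeR adjusted p = 0.644). Gabra5 was at 0.25 ± 0.13, and Gabra2, Gabra3, Gabrb1 and Gabrd at -0.12 ± 0.12, 0.06 ± 0.12, -0.23 ± 0.26 and -0.14 ± 0.11. For the high dose against untreated it was Gabrd alone, at -0.33 ± 0.11 (edgeR adjusted p = 0.402), beside 9.43% of all genes. Gabra4 was at 0.19 ± 0.12 there, Gabra5 at -0.13 ± 0.13 and Gabrb1 at -0.11 ± 0.26, and Gabra2, Gabra3 and Gabrb2 lay between -0.04 and 0.06. In this model the estimate of Gabra4 was thus lowest at the low dose and that of Gabrd lowest at the high dose, with none of these differences past the threshold.

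**Figure D4:**
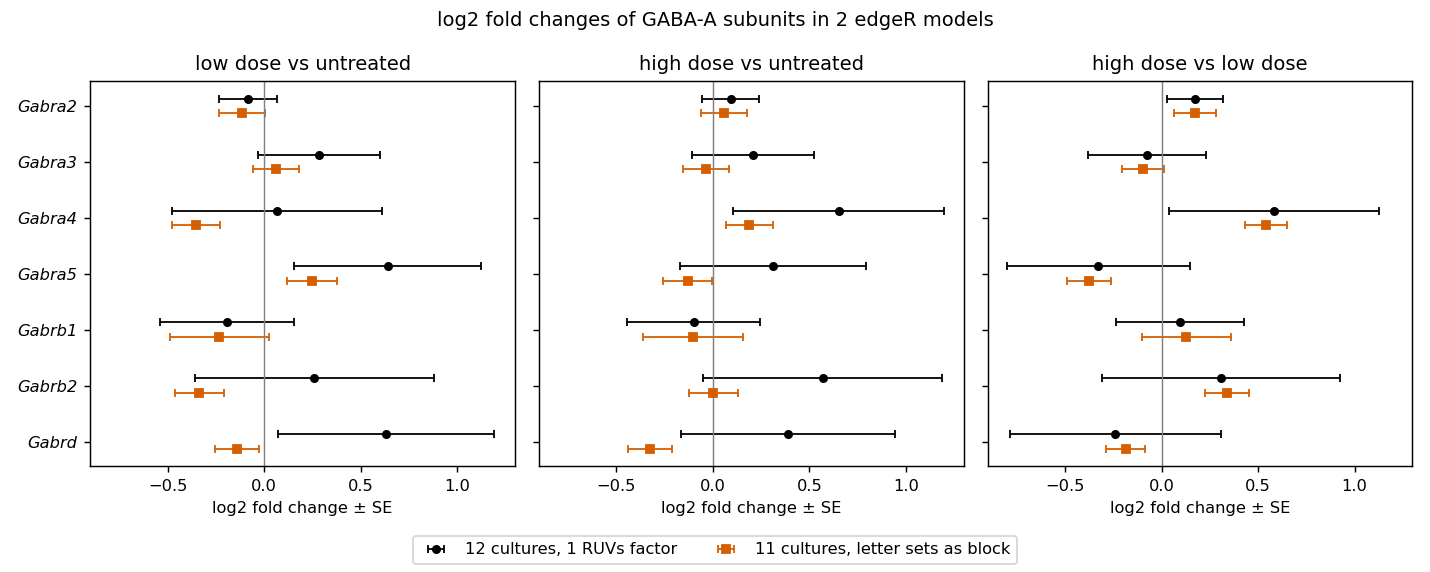
Log2 fold change ± SE of the 7 subunits in the 3 comparisons, from the edgeR model of 12 cultures with 1 factor of unwanted variation (circles) and from that of 11 cultures with the letter sets as block and without G (squares). The bars of the second model are shorter, only a little so for Gabra2 and Gabrb1, and Gabra4, Gabrb2 and Gabrd change sign between the models at the low dose against untreated.

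Each level was also taken relative to the neuron score of the same culture, as the difference of the 2 log2 values. Over the 11 cultures other than G the subunits differed in how their levels ran with that score, given here as a description. Pearson's r was -0.76 for Gabra5, -0.66 for Gabra3, -0.54 for Gabrb1, -0.35 for Gabrb2, -0.29 for Gabra2, 0.017 for Gabra4 and 0.58 for Gabrd. A relative value therefore also carries the differences of the score itself. The neuron score itself differed between the high and the low dose by 0.01, 0.14, 0.27 and 0.21 in the 4 sets, and the astrocyte score by 0.03, -0.28, -0.41 and -0.40. Relative to the neuron score, Gabra4 was higher at the high dose in the 4 sets, by 0.43, 0.45, 0.43 and 0.14, and Gabra5 lower, at -0.61, -0.59, -0.44 and -0.45. On this scale Gabrd was lower in all 4 as well, at -0.19, -0.43, -0.56 and -0.15. The score was higher at the high dose in all 4 sets, so subtracting it lowers the difference of every gene. The share of all genes with 1 direction on this scale was not computed. The scores of GABAergic neurons themselves, with nothing subtracted, differed by 0.10, -0.06, 0.10 and -0.10 in the 4 sets, and those of glutamatergic neurons by 0.05, 0.11, 0.16 and 0.11. Subtracting the neuron score is no test of cell make-up, and the part of make-up in the dose differences was not tested.

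The subunit genes lie in clusters, and in the RefSeq annotation of the rat assembly GRCr8, used here for the order of genes only, Gabrb1, Gabra4, Gabra2 and Gabrg1 follow each other with only Cox7b2 between Gabra4 and Gabra2. Gabrg3 and Gabra5 are neighbours, as are Gabra6 and Gabrb2, while Gabra3 lies between Gabre and Gabrq and Gabrd next to Prkcz, away from the other subunits. Between the high and the low dose, Gabra4 was higher in all 4 sets and its neighbour Gabrb1 in 1 of the 4. Gabra5 was lower in all 4.

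The likeness of the subunits over the 11 cultures other than G is given as Pearson's r of log2(CPM + 1), as a description, since cultures of 1 letter set are alike. The highest value among the 21 pairs of subunits was that of Gabra4 and Gabrb2 (r = 0.84). Gabra2, Gabra3 and Gabrb1 formed a group with r of 0.76 to 0.79 among them, and Gabrd ran against all 3 (r of -0.78, -0.74 and -0.71). With G included, every pair had a positive r, since G was low for all 7 subunits, and that of Gabrd and Gabra2 became 0.60.

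Among all tested genes, the 3 most like each subunit over the 11 cultures were found the same way. Gabra4 was most like Cdk14, a cyclin-dependent kinase (r = 0.95), followed by Syt17 and Mfi2. Gabrb2 was most like Slc24a2, a sodium, calcium and potassium exchanger of neurons (r = 0.97), followed by Klf13 and Atp2b1, a calcium pump of the cell membrane. For these leading genes r rose or held with G included (0.98 for Cdk14 and 0.997 for Slc24a2). Gabra3 was most like Gba2 (r = 0.98; 0.94 with G), Phc1 and Stk40. The other leading genes lost much of their likeness with G: Far1 for Gabra2 (r = 0.93; 0.50 with G; then Il17rb and Rab23), Chst8 for Gabra5 (0.98; 0.56; then Setd4 and Sppl2b), Megf9 for Gabrb1 (0.97; 0.64; then Secisbp2l and Elovl5) and Rnf181 for Gabrd (0.95; 0.21; then Fitm2 and Stard10).

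Of the 12 other GABA-A and rho subunits in the table, 6 were tested, and edgeR called 0 of the 6 in every comparison, beside 0% of all genes. None of the 6 had an unadjusted p under 0.05, beside 0.742% to 1.19% of all genes. At the low dose against untreated, the log2 fold changes were -0.05 ± 0.58 for Gabrg1, 0.60 ± 0.55 for Gabrg3 and 0.73 ± 0.51 for Gabrr2 (SE). At the high dose against untreated they were -0.18 ± 0.57, 0.59 ± 0.55 and 0.90 ± 0.49, and between the doses -0.13 ± 0.56, -0.011 ± 0.54 and 0.17 ± 0.45, in the same order. With the letter sets as block and without G, they were -0.12 ± 0.21, 0.32 ± 0.22 and 0.75 ± 0.52 at the low dose and -0.32 ± 0.21, 0.32 ± 0.22 and 0.96 ± 0.49 at the high dose against untreated. Gabrr2 was near the limit of detection, with 2 to 16 counts in the 11 cultures other than G.

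Of the genes that make and carry GABA, anchor its receptors or act beside them, edgeR with the factor called 0 in all 3 comparisons, beside 0% of all genes. The lists held 7 tested genes of GABA synthesis and transport, 19 of receptor clustering and trafficking, 4 of GABA-B receptors and their KCTD subunits, 10 of neuronal chloride balance, 2 glycine receptor subunits and 24 of interneuron identity. An unadjusted p under 0.05 was found for 1 gene, Slitrk3, a synaptic adhesion protein of inhibitory synapses. It was at 0.42 ± 0.17 at the high dose against untreated (SE; edgeR adjusted p = 1.0), beside 1.19% of all genes under that unadjusted level. For the high against the low dose, the lowest and highest log2 fold changes were -0.55 (Iqsec3) and 0.37 (Slitrk3) among clustering, and -0.37 (Kctd8) and 0.72 (Kctd16) among GABA-B genes. They were -0.68 (Car2) and 0.55 (Wnk3) for chloride balance, -0.27 (Glra2) and 0.050 (Glrb) for glycine receptors, and -0.76 (Tac1) and 1.01 (Nos1) for interneuron genes.

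Against untreated, the extremes of the same lists are given from the model with the factor, each followed in parentheses by its value with the letter sets as block and without G. At the low dose they were -0.20 (-0.18) for Slc6a11 and 0.48 (-0.20) for Slc32a1 among synthesis and transport, and -0.07 (-0.04) for Trak1 and 0.71 (0.043) for Iqsec3 among clustering. Among the GABA-B genes they were -0.30 (-0.56) for Kctd16 and 0.42 (-0.05) for Gabbr2, and for chloride balance -0.36 (-0.39) for Wnk3 and 0.44 (-0.20) for Car7. They were 0.038 (-0.11) for Glrb and 0.41 (0.20) for Glra2, and among interneuron genes -0.91 (-0.82) for Lhx6 and 0.98 (0.73) for Tac1. The sign of Slc32a1, Gabbr2, Car7 and Glrb thus differed between these models. The models differ both in the block and in leaving out G, and the part of each was not tested.

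At the high dose the extremes were -0.42 (-0.33) for Slc6a11 and 0.45 (-0.26) for Slc32a1, -0.11 (-0.13) for Gabarapl2 and 0.46 (-0.08) for Mdga1, and -0.13 (0.094) for Kctd8 and 0.42 (0.21) for Kctd16. For chloride balance they were -0.88 (-0.09) for Car2 and 0.67 (0.041) for Slc12a5, for glycine receptors 0.088 (-0.08) for Glrb and 0.14 (-0.11) for Glra2, and for interneuron genes -0.92 (-0.40) for Npy and 1.11 (-0.018) for Vip. Most of the high values against untreated were near or below 0 in the model with the letter sets as block and without G.

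In the model with the letter sets as block and without G, 0 genes of these lists were called by edgeR in any comparison. Of all genes, 0% were called at the low dose against untreated, 0.122% at the high dose against untreated and 0.113% between the doses. The nearest of the list genes was Reln, the matrix protein reelin, at 0.45 between the high and the low dose. Its edgeR adjusted p was 0.0197, but its fold change was under the threshold. Genes with an unadjusted p under 0.05 between the high and the low dose, chosen after their values were seen and shown for the anchoring and chloride genes that act with the receptor, were Lhfpl4 (an auxiliary protein of synaptic GABA-A receptors; 0.23), Slitrk3 (0.35), Iqsec3 (-0.45) and Plcl1 (-0.24), and Slc12a5 (the chloride exporter KCC2; 0.28), Wnk1 (0.25) and Wnk3 (0.58). The chloride genes named are 3 of the 10 on their list, beside 13.6% of all genes. At the same unadjusted level, 4 of the 10 chloride genes had values below untreated at the low dose, beside 7.54% of all genes. They were Slc12a5, Wnk1, Wnk3 and Slc12a2, with edgeR adjusted p of 0.644 to 0.657. At that level, 3 of the 7 genes of synthesis and transport had values below untreated at the high dose, beside 9.43% of all genes. They were Gad1, Gad2 and Slc32a1, the enzymes that make GABA and the carrier that loads it into vesicles (edgeR adjusted p of 0.324 to 0.478). The other markers of GABAergic neurons were mixed there, with none under that level. Their values were 0.22 for Dlx2, -0.02 for Lhx6, -0.27 for Dlx5 and -0.30 for Dlx1.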

How the data were processed

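RNA of 12 rat co-cultures was measured by poly(A) RNA-seq. Per the labels and the submitters' processing notes, the authors used STAR with the build rn6, and featureCounts for the read counts per gene. What they deposited are raw whole-number counts, not normalized. The strand setting is not given in the sources used here, so reads of overlapping genes on opposite strands may not be told apart. Doses were taken from the labels.

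Counts were analysed in R 4.3.3 with edgeR 4.0.16 and limma 3.58.1. Genes were kept by filterByExpr (minimum count 10), scaled by TMM, and tested by the quasi-likelihood test with the 3 conditions and 1 RUVs factor as terms, and p-values were adjusted by Benjamini-Hochberg over every tested gene. RUVseq is named in the study, but not which of its procedures or how many factors. Values per culture are CPM, or log2 with a pseudocount of 1. Alternatives were no factor, 2 factors, a replicate block by letter sets with and without culture G, DESeq2 1.42.0, its size factors, no filter, and each culture left out in turn. The procedure was tested on simulated data that held no differences between letter sets and no culture like G. That simulation therefore does not show how the procedure performs on cultures such as these. The subunits and gene lists were chosen with earlier results of these data known. Named genes were the 7 subunits, list members with an unadjusted p under 0.05 or an extreme fold change, and the 3 genes most like each subunit.

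The letters are not stated to pair the cultures. Without G, deviations from the condition means correlated within all 10 pairs of a letter set (r of 0.53 to 0.91), and each of the 11 cultures correlated best with its own set. With G, its pairs with H and I had r of -0.19 and -0.05. The range of 12059872 to 24813893 counts per culture sets the precision, and intervals cover counting error only. Sequences of the subunits were not used here, and values of some list genes are not reported here.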

Additional observations from a re-analysis of the deposited data

How the results depend on the processing

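None of the 7 subunits was called under any of the 19 alternatives, and of 399 log2 fold changes 367 kept their direction and 32 were reversed. With no factor, Gabra2 at the low dose became 0.030 and Gabrb1 at the high dose 0.055, both against untreated, and with 2 factors the latter was 0.0078. With the replicate block of all 12 cultures they were 0.052 and 0.16. With the replicate block and without G, the low dose gave -0.35 for Gabra4, -0.34 for Gabrb2 and -0.14 for Gabrd, and the high dose -0.036 for Gabra3, -0.13 for Gabra5 and -0.33 for Gabrd, all against untreated. Over all genes, that model called 0, 15 and 14 genes at the low dose and the high dose against untreated and between the doses, DESeq2 called 0, 3 and 1, and 2 factors 0, 1 and 1, against 0 in each with 1 factor.

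Leaving out each culture in turn, the low dose against untreated ranged from -0.18 to 0.13 for Gabra2, from -0.33 to 0.86 for Gabra4, from -0.44 to 0.13 for Gabrb1, from -0.45 to 1.003 for Gabrb2 and from -0.060 to 1.16 for Gabrd. The high dose against untreated ranged from -0.040 to 0.73 for Gabra3, from -0.28 to 0.21 for Gabrb1 and from -0.27 to 0.93 for Gabrd. The high against the low dose ranged from -0.32 to 0.14 for Gabra3, from -0.10 to 0.36 for Gabrb1, from -0.033 to 0.93 for Gabrb2 and from -0.46 to 0.25 for Gabrd. The lowest values against untreated came without N (Gabra4 and Gabrb2), G (Gabrd), Q (Gabra2 and Gabrb1, low dose) or R (Gabra3 and Gabrb1, high dose), and the highest without M (Gabra4, Gabrb2 and Gabrd) or P (Gabra2, Gabra3 and Gabrb1). Between the doses, the extremes came without N, O, Q or R. The cause was not tested.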

Other observations

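Some genes of the lists on GABA and chloride stood apart in culture G in either direction. They were chosen after their values were seen. Slc6a13, a GABA transporter known from the meninges, was at 40.0 CPM in G and at 0 to 0.451 CPM in the other 11 cultures. Car2, a carbonic anhydrase, was at 316 CPM in G, against 2.95 to 14.4 CPM in the others, and Gabrr2, a rho subunit, at 1.95 CPM (30 counts), against 0.166 to 1.03 CPM. Slc6a11, a GABA transporter of astrocytes, was lowest in G, at 6.62 CPM against 10.6 to 49.9 CPM in the others, as was Abat, which breaks down GABA, at 25.4 CPM against 56.2 to 88.9 CPM.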
